A study of Mus musculus with 9 samples.

Results

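The 10 genes examined here act in neuropeptide processing and storage, and 22092 genes had counts in all. They are the prohormone convertases Pcsk1 and Pcsk2, the carboxypeptidase gene Cpe, the amidating enzyme gene Pam, the convertase partners Scg5 and Pcsk1n, and the granin genes Chga, Chgb, Scg2 and Scg3. They were chosen as a written list of symbols, and each was represented by its most counted transcript. The data are RNA-seq counts of mRNAs recovered by translating ribosome affinity purification (TRAP), which pulls down tagged ribosomes. All mice were 2 months old, of the strain Aldh1L1 JD130 with the genotype tg:Aldh1L1-L10aGFP. In these mice a bacterial artificial chromosome with Aldh1l1 regulatory sequence, active in astrocytes, drives a fusion of GFP to the ribosomal protein L10a.

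The 3 whole astrocyte TRAP libraries each came from a single whole brain, with the choroid plexus taken out. The 6 endfeet TRAP libraries came from brain vessels that were isolated mechanically, carried the attached astrocyte endfeet, and were pooled from several mice for each library. Gene totals were 35984144 to 43521208 counts in whole astrocyte libraries and 2319495 to 13450588 in endfeet libraries, with the smallest total in endfeet library 6. A level of 3 counts, taken as the floor, was 0.0658 to 0.0811 CPM (counts scaled to library totals after TMM normalisation) in whole astrocyte and 0.197 to 1.37 CPM in endfeet libraries. In the numbers carried by the libraries, endfeet libraries 1, 2 and 3 form a run of their own (series A), while endfeet libraries 4, 5 and 6 run on with those of whole astrocytes (series B). The meaning of these numbers is not given in the sources used here.

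Markers of vessel cells were counted in the endfeet libraries. The 9 endothelial markers summed to 3163 to 4766 CPM there against 5.97 to 6.99 CPM in whole astrocyte libraries, the 9 mural markers to 4085 to 8571 CPM against 40.3 to 46.9 CPM, and all 18 passed the test as higher. The 13 neuron markers summed to 1294 to 2273 CPM in endfeet against 4091 to 4724 CPM in whole astrocyte libraries, and 3 of them fell. Of the 12 astrocyte markers, Aqp4 rose, 6 fell and 5 did not pass, and their sum was 10828 to 31805 CPM against 36813 to 40854 CPM. The 7 fibroblast markers all rose (779 to 1537 CPM against 29.0 to 42.4 CPM in sum), as did 7 of 8 ependymal and choroid plexus markers (6769 to 89733 CPM against 59.7 to 1501 CPM), and 1 of 7 oligodendrocyte markers fell (240 to 567 CPM against 635 to 648 CPM). Of 8 pituitary markers, the growth hormone mRNA Gh was at 9.19 and 13.2 CPM in endfeet libraries 1 and 2, and the prolactin mRNA Prl at 8.62 CPM in endfeet library 2. The summed level of the 8 was highest in endfeet library 2, at 28.4 CPM, and 0 to 1.25 CPM in endfeet libraries 3 to 6, of which library 3 held 0.723 and library 5 held 1.18 CPM of Lhb. In whole astrocyte libraries the sum was 0.132 to 0.351 CPM. The pituitary factors Pou1f1 and Pitx1 had 0 counts in all 9 libraries. With bulk RNA, fewer cells of a type and less RNA per cell cannot be told apart. The endfeet libraries thus also held marker mRNAs of other cell types, and a level there need not be that of astrocyte ribosomes alone. The part of these cell types in the results below was not tested, except where values are given.

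Neuropeptides and many hormones are made as long precursors that pass through the secretory pathway into dense-core granules. There the convertases cut the precursor at basic residues, carboxypeptidase E trims the basic residues that remain, and peptidylglycine alpha-amidating monooxygenase, the product of Pam, converts an end glycine into an amide. Granins are acidic proteins that aggregate in these granules with the cargo and are themselves cut into peptides. The pathway is best known from neurons and endocrine cells, but carboxypeptidase E and some granins are also made by astrocytes.

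Promoter sequences from RefSeq (GRCm38.p6, 250 bases before to 50 after a start) were found for 9 of the 10 genes, all but Cpe. The cAMP response element TGACGTCA, searched on both strands, was present in 3 of the 9, compared with 2.03% of 27025 genes. These 3 are shown because they are the only members to hold the full element, which is in capitals. It began 68 bases before the RefSeq start of Scg2, 72 bases before that of Chgb and 78 bases before that of Pcsk1. In the GENCODE annotation used for the counts, transcription of Scg2 and Chgb starts further upstream, so that their elements lie inside the counted transcript, and that of Pcsk1 lies before it. The stretch of Scg2 is chr1:79440076-79440105 on the minus strand, that of Chgb is chr2:132781559-132781588 and that of Pcsk1 is chr13:75089768-75089797, both on the plus strand.
Scg2: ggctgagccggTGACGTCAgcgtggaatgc
Chgb: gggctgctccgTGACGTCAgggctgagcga
Pcsk1: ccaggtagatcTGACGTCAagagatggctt

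The shorter element TGACG, which lies within TGACGTCA, was present in 7 of the 9 promoters, against 23% of genes, and was not found in those of Pam and Pcsk1n. The GC box GGGCGG was in 7 of the 9, against 38.2% of genes, and that of Pcsk1 began 42 bases after the RefSeq start. TATAAA was in the promoter stretch of Chga only, against 15.7%, and began 5 bases after the RefSeq start. The counted GENCODE transcript of Chga starts further downstream, at chr12:102554969, so that the motif lies before it. The 160 bases before the more upstream RefSeq start of Pam (chr1:98095647-98095806, minus strand) are shown because Pam had the highest fold change of the 10 genes. Their capitals mark the GC box read on the opposite strand.
Pam: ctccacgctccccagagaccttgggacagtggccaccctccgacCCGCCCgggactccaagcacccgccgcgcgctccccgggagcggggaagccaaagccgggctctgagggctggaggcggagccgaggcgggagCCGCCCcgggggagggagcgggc

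Endfeet and whole astrocyte TRAP were then compared, to ask which mRNAs of the pathway were at a different level in the RNA recovered from the vessels. Cpe and Pam rose in endfeet TRAP, and no member fell. All 10 genes passed the filter on low counts. In the edgeR quasi-likelihood test over 14427 genes (Benjamini-Hochberg adjusted p of at most 0.05), 2 were called higher, where 20.7% of all tested genes were, and 0 were called lower, where 13.9% were. Without adjustment 3 members had a p under 0.05. Every endfeet library was above every whole astrocyte library for 3 members, Cpe, Pam and Scg5, against 18.9% of tested genes, and below for 0, against 23.8%. A count of 2 of 10 is close to the background share of genes called higher, and nothing is read from these counts about the 10 genes as a set. The median log2 fold change of the 10 members was 0.65, beside 0.10 over all tested genes, and 9 of the 10 values were above 0. The share of all tested genes above 0 was not counted, so nothing is read from these signs either. Within series B, Chga (-0.08), Chgb (-0.22), Pcsk2 (-0.13) and Pcsk1 (-2.26) were below 0.

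**Figure D1:**
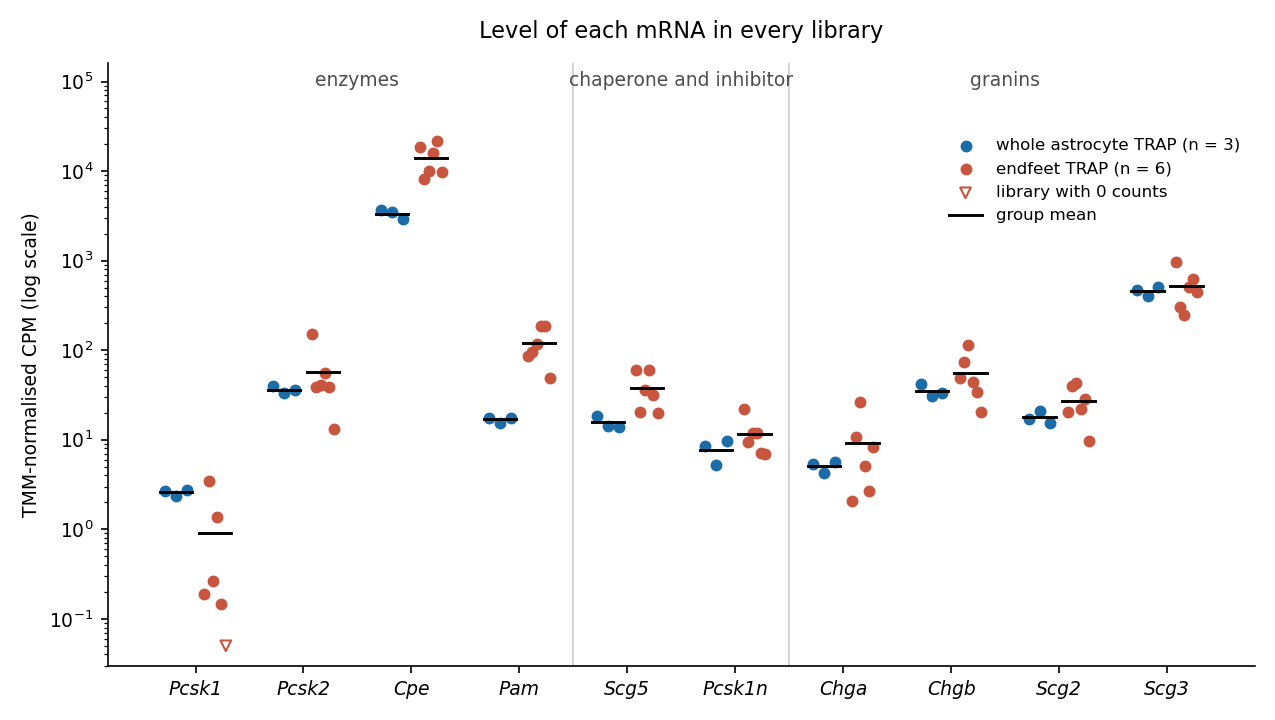
Level of the 10 mRNAs in every library, as TMM-normalised CPM on a log axis, with whole astrocyte TRAP (n = 3) in blue, endfeet TRAP (n = 6) in red and the group mean as a black line. Cpe, Pam and, more narrowly, Scg5 are higher in all 6 endfeet libraries than in any whole astrocyte library. The open triangle is the endfeet library with 0 counts of Pcsk1, which has no place on a log axis.

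Carboxypeptidase E had the most abundant mRNA of the set. Cpe (chr8:64592542-64693054, minus strand, 9 exons) was at 3713, 3452 and 2887 CPM in the whole astrocyte libraries. In endfeet libraries 1 to 6 it was at 18681, 8178, 9923, 15906, 21588 and 9748 CPM. The lowest endfeet library was above the highest whole astrocyte library. The means were 3351 ± 422 CPM (SD, n = 3) and 14004 ± 5508 CPM (SD, n = 6), and the log2 fold change was 2.06 (SE 0.37), or 4.18-fold, with an edgeR adjusted p of 0.000866. Within series B the log2 fold change was 2.10 (adjusted p 0.00223), and without endfeet libraries 1 and 2, which held Gh above 9 CPM, it was 2.09.

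Cpe alone gave 0.302 to 0.382% of all gene counts in whole astrocyte libraries and 0.823 to 2.18% in endfeet libraries. Per kilobase of transcript, its mean CPM ranked 13 among all genes in whole astrocyte libraries and 3 in endfeet libraries. Of the summed CPM per kilobase of the 10 members it made up 83.8 to 88.2% in whole astrocyte and 94.2 to 96.5% in endfeet libraries. The other 9 members together summed to 534 to 644 CPM in whole astrocyte libraries and to 574 to 1357 CPM in endfeet libraries, so these ranges overlapped.

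Pam, which encodes the copper-dependent enzyme that amidates peptides, had the larger fold change at a far lower level. Pam (chr1:97821094-98095621, minus strand, 26 exons) was at 17.7, 15.6 and 17.4 CPM in whole astrocyte libraries. It was at 85.2, 94.8, 119, 186, 187 and 48.9 CPM in endfeet libraries 1 to 6. Again no endfeet library overlapped the whole astrocyte range. The means were 16.9 ± 1.15 CPM (SD, n = 3) and 120.1 ± 56.1 CPM (SD, n = 6), a log2 fold change of 2.83 (SE 0.47), or 7.12-fold, with an edgeR adjusted p of 0.000466. The log2 fold change was 2.93 within series B (adjusted p 0.0042) and 3.02 without endfeet libraries 1 and 2. Its rank by CPM per kilobase was 8421 in whole astrocyte and 2129 in endfeet libraries.

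The convertases did not pass the test. Pcsk2 (chr2:143546156-143816285, plus strand, 12 exons) encodes prohormone convertase 2, which cuts proenkephalin and many other precursors. It was at 39.5, 33.3 and 36.2 CPM in whole astrocyte libraries and at 152.7, 38.5, 41.1, 56.0, 38.8 and 13.3 CPM in endfeet libraries 1 to 6. Endfeet library 1 was high, library 6 was low, and the groups overlapped. The log2 fold change was 0.64 (SE 0.60, edgeR adjusted p 0.433). It was -0.13 within series B, 0.05 without endfeet library 1, 0.87 with counts summed over transcripts (adjusted p 0.361) and 2.47 with the second transcript alone (adjusted p 0.0982). The antisense genes Pcsk2os1 and Pcsk2os2 share 260 and 99 bases with the exons of Pcsk2. Whether reads were counted by strand is not given in the sources used here, so the counts of these genes may be mixed.

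Pcsk1 (chr13:75089826-75134861, plus strand, 14 exons) encodes prohormone convertase 1, which makes the first cuts in many precursors. It was at 2.68, 2.38 and 2.77 CPM in whole astrocyte libraries, from 99, 90 and 126 counts. In endfeet libraries 1 to 6 it was at 0.188, 3.45, 0.263, 1.37, 0.147 and 0 CPM, from 1, 30, 4, 17, 2 and 0 counts. The whole astrocyte range lay above 5 of the 6 endfeet libraries and below library 2, and 3 were at or under the floor of 3 counts. The log2 fold change was -1.47 (SE 1.15, edgeR adjusted p 0.34). With limma voom and a weight for each group it was -2.34 with an adjusted p of 0.0179, the only 1 of 21 alternatives that called a member lower. The common dispersion was 0.014 among whole astrocyte and 0.705 among endfeet libraries, and edgeR fitted a shared dispersion to both groups.

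The products of the next pair of genes bind the convertases. Scg5 (chr2:113776362-113829121, minus strand, 6 exons) encodes the chaperone that prohormone convertase 2 needs to become active. It was at 18.5, 14.3 and 14.0 CPM in whole astrocyte libraries and at 60.2, 20.6, 35.5, 60.6, 31.8 and 20.1 CPM in endfeet libraries 1 to 6. All 6 endfeet libraries were above the whole astrocyte range, libraries 2 and 6 only narrowly. The log2 fold change was 1.29 (SE 0.51, unadjusted p 0.0253, edgeR adjusted p 0.0667), which did not pass. It passed with DESeq2 (1.31, adjusted p 0.0121), with voom (1.24, adjusted p 0.00436), with thinned counts (1.49, adjusted p 0.0401), and without endfeet library 2 (1.48, adjusted p 0.0441) or library 6 (1.42, adjusted p 0.026).

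Pcsk1n (chrX:7919822-7924410, plus strand, 3 exons) encodes proSAAS, an inhibitor of prohormone convertase 1. It was at 8.41, 5.16 and 9.68 CPM in whole astrocyte libraries and at 21.9, 9.54, 11.9, 11.99, 7.15 and 6.85 CPM in endfeet libraries 1 to 6. The groups overlapped, with endfeet library 1 the highest, and the log2 fold change was 0.58 (SE 0.66, edgeR adjusted p 0.525). Within series B it was 0.04. The gene Eras on the opposite strand shares 135 bases with its exons.

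**Figure D2:**
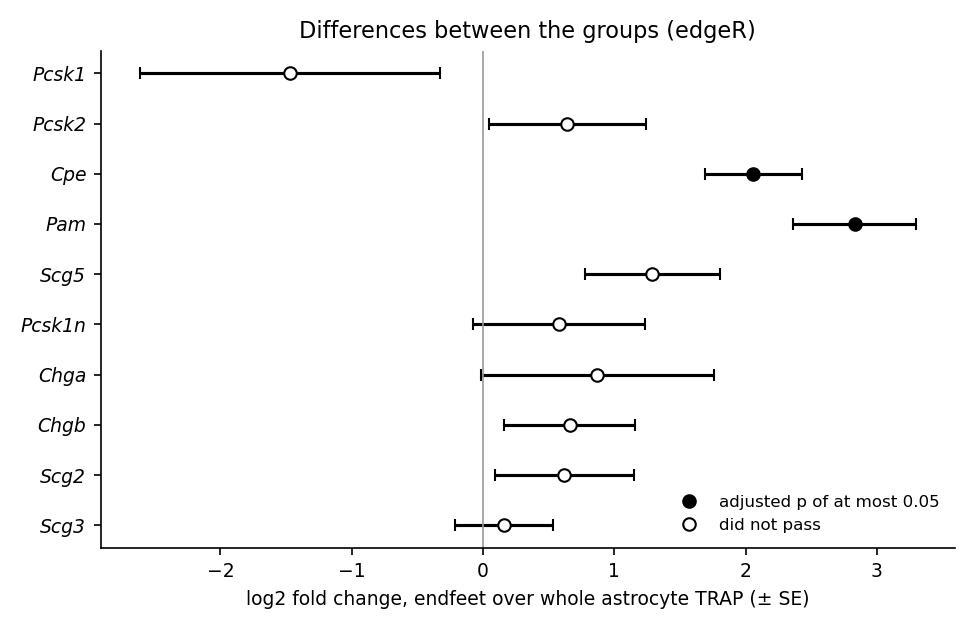
Log2 fold change of the 10 members between endfeet and whole astrocyte TRAP, with bars of 1 SE from the edgeR fit and filled points for an adjusted p of at most 0.05. Cpe at 2.06 and Pam at 2.83 are filled, Scg5 at 1.29 lies next to them with an open point, and Pcsk1 at -1.47 is the only value below 0.

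None of the 4 granin mRNAs passed the test. Scg3 (chr9:75643189-75684056, minus strand, 12 exons) encodes secretogranin 3, which binds chromogranin A and carboxypeptidase E at the granule membrane, and was the most abundant of the 4. It was at 469, 407 and 510 CPM in whole astrocyte libraries and at 966, 305, 250, 501, 621 and 446 CPM in endfeet libraries 1 to 6. Of the endfeet libraries, 2 were above the whole astrocyte range, 2 were below it and 2 within it. The log2 fold change was 0.16 (SE 0.37, edgeR adjusted p 0.778), and its sign changed with the setting, from -0.15 to 0.33 over 21 alternatives.

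Chgb (chr2:132781278-132795079, plus strand, 5 exons) encodes chromogranin B. It was at 41.5, 31.0 and 33.4 CPM in whole astrocyte libraries and at 48.8, 73.0, 114, 44.7, 33.8 and 20.6 CPM in endfeet libraries 1 to 6. Scg2 (chr1:79434669-79440120, minus strand, 2 exons) encodes secretogranin 2, the precursor of secretoneurin. It was at 17.2, 20.9 and 15.5 CPM in whole astrocyte libraries and at 20.6, 40.3, 43.2, 21.8, 28.5 and 9.59 CPM in endfeet libraries 1 to 6. For both genes endfeet libraries 2 and 3 were the highest, library 6 was the lowest of all, and the groups overlapped. The log2 fold changes were 0.66 for Chgb (SE 0.50, edgeR adjusted p 0.324) and 0.62 for Scg2 (SE 0.53, edgeR adjusted p 0.392). Within series B they were -0.22 and 0.04.

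Chga (chr12:102554969-102565028, plus strand, 8 exons) encodes chromogranin A, the founding member of the family. It was at 5.38, 4.26 and 5.60 CPM in whole astrocyte libraries and at 2.06, 10.8, 26.5, 5.15, 2.65 and 8.22 CPM in endfeet libraries 1 to 6. Library 3 was the highest, 2 endfeet libraries were below the whole astrocyte range, and the log2 fold change was 0.87 (SE 0.89, edgeR adjusted p 0.479). It was 0.17 without endfeet library 3 and -0.08 within series B. For Chga, Chgb, Scg2, Pcsk2 and Pcsk1n, the values within series B thus lay between -0.22 and 0.04. Those of the other members were 0.05 for Scg3, 1.15 for Scg5, -2.26 for Pcsk1, 2.10 for Cpe and 2.93 for Pam, and of all 10 only Cpe and Pam passed there.

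The spread between libraries was wider in endfeet TRAP for all 10 genes. The coefficient of variation was 6.79 to 30.1% in whole astrocyte libraries, and among endfeet libraries it ran from 39.3% for Cpe to 149% for Pcsk1. The highest endfeet library was 2.64 times the lowest for Cpe, 3.83 times for Pam and 12.9 times for Chga.

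By level per kilobase of transcript, Cpe came first in both groups, with 1583 CPM per kb in whole astrocyte libraries and 6615 in endfeet libraries. Scg3 came second with 194 and 216 CPM per kb, and neither gene overlapped its neighbour in that order over the libraries. In whole astrocyte TRAP the next were Scg5 (12.9) and Chgb (12.9), which overlapped, then Pcsk2 (7.70) and Scg2 (7.10), which overlapped, then Pam (4.12), Pcsk1n (3.53) and Chga (2.70), each overlapping the next, and last Pcsk1 (0.517 CPM per kb). In endfeet TRAP Pam stood in position 4 instead of 7, with 29.3 CPM per kb, after Scg5 with 31.6. From Scg5 down to Chga (4.91 CPM per kb) every gene overlapped the next there, and Pcsk1 was again last with 0.179 CPM per kb.

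Ratios of 2 mRNAs within a library do not depend on the normalisation. A set of 6 pairs was compared between the groups by a two-sided exact permutation test over 84 splits, with Benjamini-Hochberg adjustment over the 6 pairs. The smallest p such a test can give is 0.0119. The ratio of Cpe to Scg3 was higher in endfeet TRAP. On the log2 scale it was 2.98, 3.08 and 2.50 in whole astrocyte libraries and 4.27, 4.75, 5.31, 4.99, 5.12 and 4.45 in endfeet libraries 1 to 6. The difference of the means was 1.96 (higher in 6 of 6 endfeet libraries, exact permutation p 0.0119, adjusted p 0.0357).

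Both genes were also set against Slc1a2, the glutamate transporter mRNA of astrocytes, whose own edgeR log2 fold change was 0.93 (SE 0.39, adjusted p 0.08). Slc1a2 is among the 12 astrocyte markers, of which 1 rose, 6 fell and 5 did not pass. Their log2 fold changes differed widely, for example 1.67 for Aqp4, 0.27 for Slc1a3 and -3.27 for Sox9. The size and sign of the differences below thus hold for Slc1a2 as the reference. Ratios to the other astrocyte markers were not tested. The log2 ratio of Cpe to Slc1a2 was -1.26 ± 0.26 (SD, n = 3) in whole astrocyte and -0.09 ± 0.41 (SD, n = 6) in endfeet libraries. It was higher by 1.17 in endfeet TRAP, in 6 of 6 libraries (exact permutation p 0.0119, adjusted p 0.0357). The log2 ratio of Scg3 to Slc1a2 was -4.12 ± 0.11 (SD, n = 3) and -4.90 ± 0.34 (SD, n = 6). Its difference was -0.79, lower in 6 of 6 endfeet libraries (exact permutation p 0.0238, adjusted p 0.0476). With series B alone (3 against 3 libraries) the differences were 2.00, 0.94 and -1.05 for the 3 ratios, and there the test cannot give a p under 0.1. Leaving out any whole astrocyte library gave an adjusted p of 0.0714 for each of the 3 ratios. Leaving out any of endfeet libraries 3, 4, 5 and 6 gave 0.0536 for both ratios of Cpe and 0.0714 for Scg3 to Slc1a2, which was at 0.0536 without endfeet library 2. The differences without 1 library were 1.78 to 2.07, 1.03 to 1.30 and -0.90 to -0.72.

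The other 3 pairs did not pass. The log2 ratio of Cpe to Pam was 7.63 ± 0.22 (SD, n = 3) in whole astrocyte and 6.92 ± 0.64 (SD, n = 6) in endfeet libraries (exact permutation p and adjusted p 0.119). The ratio of the inhibitor Pcsk1n to its convertase Pcsk1 was higher by 2.88 on the log2 scale, in 5 of 6 endfeet libraries (exact permutation p 0.0714, adjusted p 0.0857). Without endfeet library 2 this difference was 3.47 with an adjusted p of 0.0357. Since Pcsk1 had 0 to 4 counts in 4 of the 6 endfeet libraries, the size of the difference depended on the pseudocount, and with 3 counts in place of 0.5 it was 1.97 (adjusted p 0.0857). The ratio of the chaperone Scg5 to its convertase Pcsk2 was higher by 0.89, in 5 of 6 endfeet libraries (exact permutation p 0.0714, adjusted p 0.0857).

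**Figure D3:**
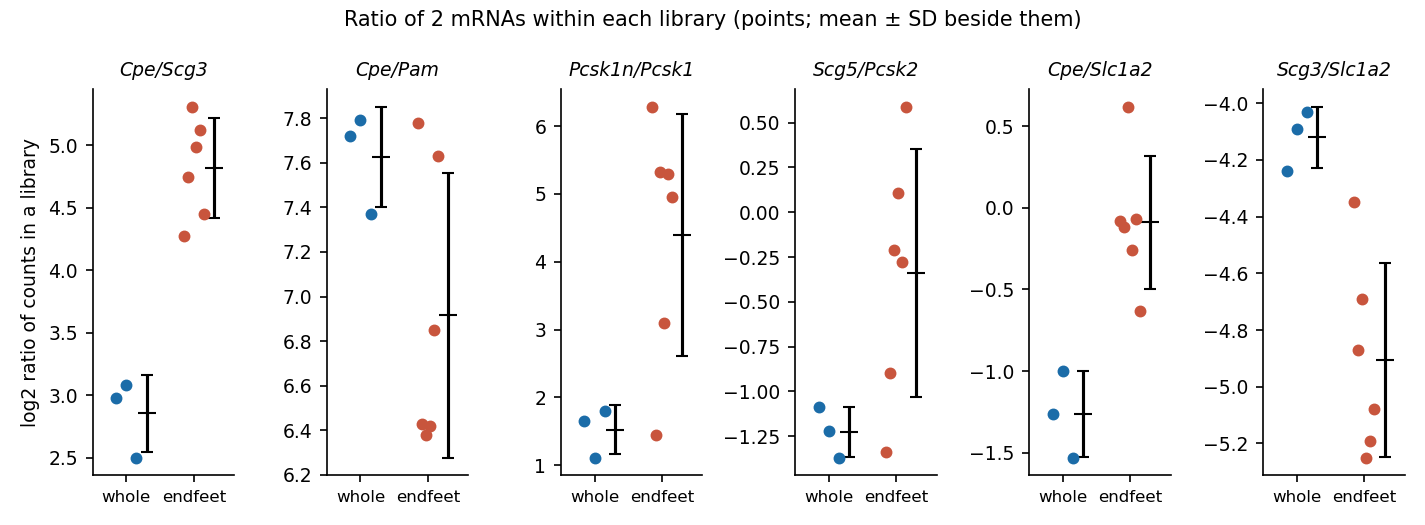
Log2 ratio of the counts of 2 mRNAs in each library, for 6 pairs, with whole astrocyte TRAP (n = 3) in blue, endfeet TRAP (n = 6) in red and the mean ± SD in black, each panel with an axis of its own that does not start at 0. The groups do not overlap for Cpe/Scg3, Cpe/Slc1a2 and Scg3/Slc1a2, where the differences are 1.96, 1.17 and -0.79.

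The rest of the pathway was described by 3 further lists. Among 18 other processing enzymes, 15 could be tested, 9 rose and 0 fell, beside 20.7% and 13.9% of all tested genes, with a median log2 fold change of 2.12 beside 0.10. Cpd, a carboxypeptidase of the trans-Golgi network, was at 25.5 ± 2.41 CPM (SD, n = 3) in whole astrocyte and 383 ± 128 CPM (SD, n = 6) in endfeet libraries, a log2 fold change of 3.91 (SE 0.37, edgeR adjusted p 5.06e-06). Cpm, a carboxypeptidase anchored at the cell surface, went from 5.64 to 68.5 CPM (log2 fold change 3.60). Aebp1, a carboxypeptidase-like protein of the extracellular matrix, went from 8.47 to 197 CPM (4.54), and Furin, the convertase of the trans-Golgi network, from 4.08 to 34.5 CPM (3.08). These 4 were named for the smallest adjusted p of the list, and each was higher in all 6 endfeet libraries. Over the list this held for 8 of 18 genes, and over all tested genes for 18.9%. The convertase Pcsk6 (log2 fold change 1.21, edgeR adjusted p 0.302) and the aminopeptidase Rnpep (-0.38, edgeR adjusted p 0.562) did not pass.

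Of 22 other genes of dense-core vesicles and their release, all tested, 5 rose, 1 fell and 16 did not pass, with a median of 0.48. The count of 5 is close to the background of 20.7% called higher, and 13.9% of all tested genes were called lower. Cyb561, the granule cytochrome that passes electrons for the regeneration of ascorbate, a cofactor of the amidating enzyme, went from 8.004 to 114 CPM (log2 fold change 3.83, SE 0.65, edgeR adjusted p 0.000584). Nucb2, which encodes the precursor of nesfatin, went from 2.997 to 42.2 CPM (3.81), the calcium sensor Syt7 from 24.8 to 106 CPM (2.10) and the granule membrane protein Ptprn2 from 18.9 to 66.2 CPM (1.81). Rab27b, a small GTPase of secretory vesicles, fell from 22.7 to 1.28 CPM (log2 fold change -4.09, SE 0.80, edgeR adjusted p 0.00157). Ccdc186 (0.69) and the priming factor gene Cadps (-0.71) did not pass.

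Of 32 neuropeptide precursors 16 could be tested. None of them passed with edgeR, where 20.7% of all tested genes were called higher and 13.9% lower, and the median was 0.12. Of the 16, 2 had an unadjusted edgeR p under 0.05 (Vip and Tac2, both lower). DESeq2, with all 32 in its fit, called 1 lower. Some precursors had few counts in endfeet libraries, for example Tac2 with 0 to 15 and Pomc with 0 to 24, and the part of low counts in these results was not tested. The precursor mRNAs with the most counts were Penk, at 29.7 ± 7.01 CPM (SD, n = 3) and 36.9 ± 23.8 CPM (SD, n = 6), and Cck, at 27.2 ± 6.30 CPM (SD, n = 3) and 27.1 ± 19 CPM (SD, n = 6).

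**Figure D4:**
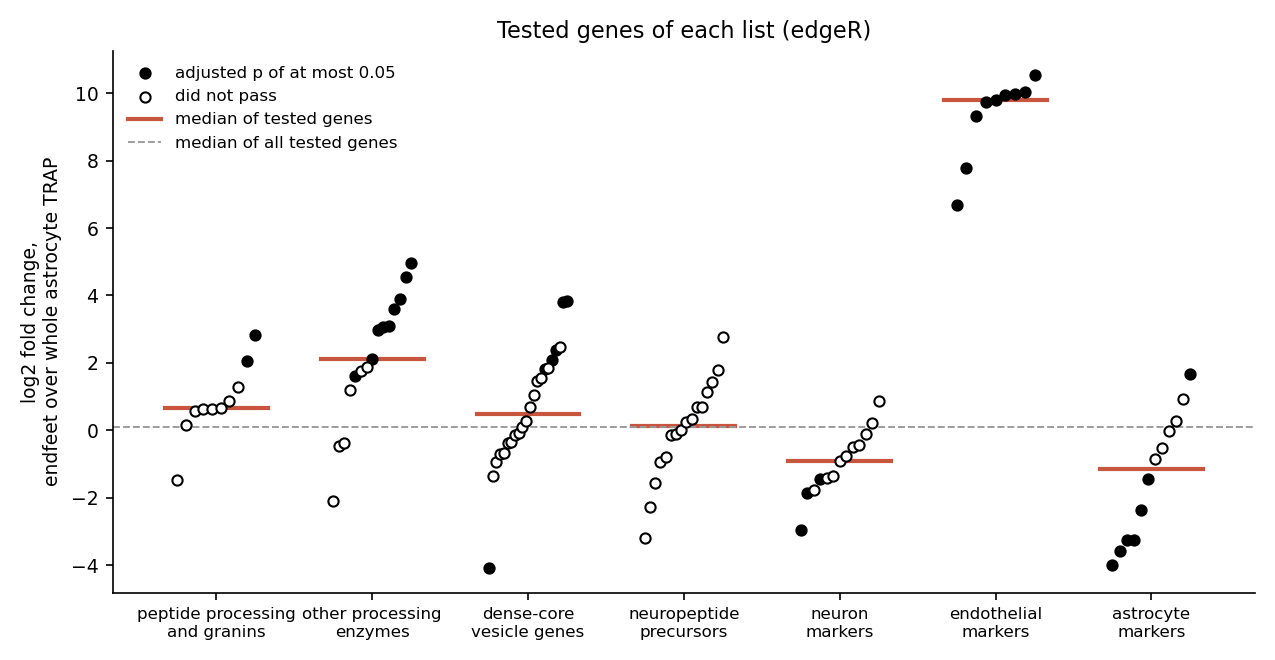
Log2 fold change between endfeet and whole astrocyte TRAP of each tested gene in 7 lists, with filled points for an edgeR adjusted p of at most 0.05, red lines for the median of a list and a dashed line for the median of all tested genes, 0.10. The 9 endothelial markers all lie far above 0, the other processing enzymes have a median of 2.12, and the neuropeptide precursors have a median of 0.12 and no filled point.

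Over the 9 libraries, the genes whose log2(CPM + 1) values followed a member most closely were listed as a description, since all points share group, depth and preparation. For Cpe they were Scn7a (Pearson r 0.992), Ginm1 (0.981) and Ncan (0.978). For Pam they were Tmem119 (0.991), Plekha2 (0.987) and Orai1 (0.985), and for Scg5 they were Snx25 (0.954), Fcgr2b (0.95) and Uxs1 (0.942). Tmem119 is itself a microglia marker, and 4 of the 7 microglia markers rose, with a summed level of 77.9 to 162 CPM in endfeet and 15.9 to 19.2 CPM in whole astrocyte libraries. For Scg3 they were Dnal1 (0.964), Fyttd1 (0.954) and Slc1a3 (0.935), the last an astrocyte glutamate transporter mRNA. The other members were followed most closely by Donson (Scg2, 0.979), Gm10767 (Chga, 0.931), Prdm10 (Chgb, 0.941), Ndfip1 (Pcsk1, 0.981), Zfp941 (Pcsk2, 0.988) and Grik1 (Pcsk1n, 0.936).

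Counts on further annotated transcripts gave an additional view of 2 members, chosen after their values were seen. Pcsk2-202, a noncoding transcript of 2 exons with 3187 of its 3686 bases outside the exons of the coding Pcsk2-201, had 7.87, 7.31 and 6.30% of the coding transcript's count in whole astrocyte libraries. In endfeet libraries 1 to 6 it had 37.8, 20.9, 27.7, 15.1, 10.1 and 10.3%. Every endfeet library was above every whole astrocyte library, although library 6 rested on 3 counts against 29. The short transcripts Pam-203, Pam-204 and Pam-213 of Pam reached 37.4, 25.6 and 45.7% of the count of the full-length transcript used for Pam in endfeet library 4. In the other 8 libraries they lay at 7.52 to 18%, 3.52 to 13.1% and 10.7 to 28.2%. With counts summed over all transcripts of a gene, the log2 fold change of Pam was 2.76.

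**Figure D5:**
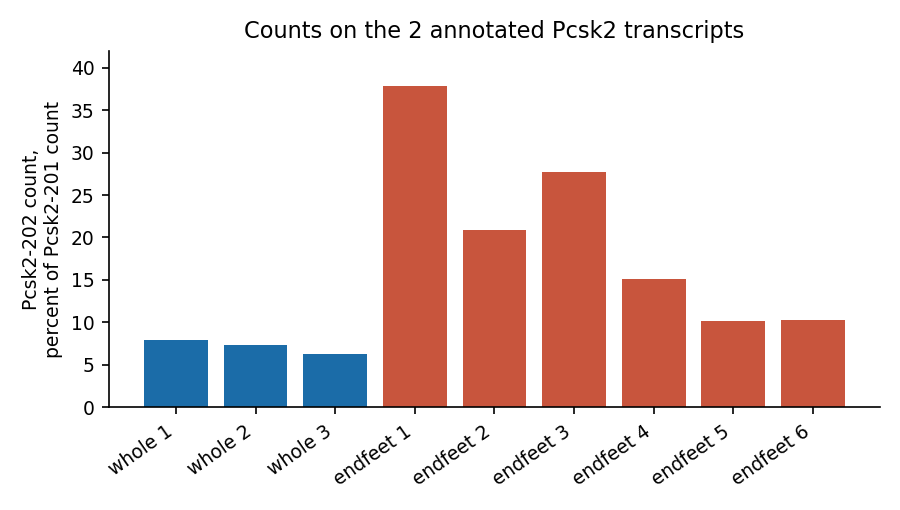
Count of the noncoding transcript Pcsk2-202 as percent of the count of the coding Pcsk2-201 in each library, with whole astrocyte TRAP in blue and endfeet TRAP in red. The 3 whole astrocyte bars are at 6.30 to 7.87% and the 6 endfeet bars at 10.1 to 37.8%.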

How the data were processed

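Polysomal RNA of 3 whole astrocyte TRAP and 6 endfeet TRAP libraries was amplified by the authors with the NuGEN Ovation system and sequenced. The authors used Bowtie on mm10, kept reads with a single alignment, and counted their overlaps with Ensembl annotation by HTSeq-count (0.5.3). The deposited tables hold counts for each Ensembl transcript with no normalisation. Of 75466 transcripts, 73164 in 22092 genes were matched to GENCODE M21 and 2302 stayed unused. Its most abundant transcript was taken for each gene (by CPM added over the 9 libraries), since transcripts of a gene repeat the same reads.

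The groups were compared with edgeR 4.0.16 in R 4.3.3 (TMM, filterByExpr, quasi-likelihood test) over 14427 genes. P-values were adjusted by Benjamini-Hochberg, with a threshold of 0.05. The SE was derived from the log2 fold change and the F statistic, as the size of the first over the root of the second. Ratios of pairs used a pseudocount of 0.5 counts, and correlations one of 1 CPM. Scripts were tested on simulated data. There the edgeR test called 50% of genes given a log2 change of 2 and 89% of those given 4. A gene that did not pass may thus still differ between the groups. The simulation gave both groups the same dispersion, unlike these libraries (0.014 among whole astrocyte and 0.705 among endfeet libraries). It also gave no change to the genes with the lowest levels. The shares of 50% and 89% may therefore not hold for these data. The 10 genes, the lists and the motifs were chosen with earlier results of these data known. Besides the 10 genes, up to 4 genes per direction with the smallest adjusted p and 2 uncalled genes with the highest CPM were named from each list, and 3 genes most like each member were looked up. Vip, Tac2, Pomc, Lhb, Eras and the antisense genes of Pcsk2 are named outside that rule, after their values were seen.

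Alternatives were DESeq2 1.42.0, its size factors, limma 3.58.1 voom with group weights, no filter, at least 10 counts in every library, the number series as a covariate or series B alone, a replicate block, summed or second transcripts, thinned counts, a pseudocount of 3 in ratios, and each library left out. Leaving out endfeet libraries 1 and 2 together was added after seeing the data. Floors of counts cover counting error only, while the SE and p-values reflect the spread between these preparations.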

Additional observations from a re-analysis of the deposited data

Results flagged for a closer look

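For 3 genes a value stood apart from the other endfeet libraries of the same gene by Dixon's criterion (gap to the nearest value over the range above 0.625 for 6 libraries). Pcsk2 was at 152.7 CPM in endfeet library 1, with the nearest other library at 56.0 CPM and a ratio of 0.693. Pcsk1n was at 21.95 CPM in the same library, with the nearest at 11.99 CPM and a ratio of 0.66. Chga was at 26.54 CPM in endfeet library 3, with the nearest at 10.8 CPM and a ratio of 0.643. The criterion was applied to 16 groups of 6 libraries, and for these 3 genes on CPM without a log. For normally distributed values chance flags about 1 in 20 groups. The rate for values as spread as these was not tested, and the flags depend on the scale. Without endfeet library 1 the log2 fold change was 0.05 for Pcsk2 and 0.29 for Pcsk1n, and without endfeet library 3 that of Chga was 0.17, beside 0.64, 0.58 and 0.87 with all libraries. Endfeet library 1 held 49 counts of Gh (115 in endfeet library 2, 1 in whole astrocyte library 1 and 0 in the others), and also the library with the highest summed level of choroid plexus and ependymal markers, 89733 CPM against 6769 to 39544 CPM in the other endfeet libraries. The part of either in these values was not tested.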

How the results depend on the processing

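The calls of Cpe (log2 fold change 1.78 to 2.24) and Pam (2.53 to 3.06) held in all 21 alternatives, and 2 to 3 members were called higher. Some alternatives could not differ in the counts of these genes. Cpe had no second transcript, so the settings with second and summed transcripts used its main counts again. The second transcript of Pam, Pam-202, had 100% of the main count in every library. The single member called lower was Pcsk1 with voom, where 1 other processing enzyme was called lower too. Scg3 changed sign to -0.01 (at least 10 counts), -0.15 (block), -0.03 (voom; and without endfeet libraries 1 and 2), -0.13 without endfeet library 1 and -0.02 without library 5 (-0.13 to 0.33 with 1 library left out). The sign also changed with the series as covariate for Chgb (-0.09) and Pcsk2 (-0.00), and in series B alone for Chga (-0.08), Chgb (-0.22) and Pcsk2 (-0.13). Over all genes, 2991 rose and 2006 fell. Voom called 3928 higher and 4485 lower, series B alone 2798 and 2819, and leaving out 1 library 1874 to 3380 higher (1874 to 1959 without a whole astrocyte library) and 1171 to 2642 lower. The median of all genes shifted by -0.25 with voom, -0.21 with the block, -0.15 with at least 10 counts, -0.13 in series B and 0.15 with thinned counts. Dense-core vesicle genes called lower were 2 with DESeq2, in series B, with summed transcripts and without endfeet libraries 1 and 2, 3 with voom, and 1 to 2 with a library left out, where 3 (without whole astrocyte library 2) to 6 were higher. Neuropeptide precursors called lower were 1 with DESeq2 or no filter, 4 in series B, 2 with the second transcript, 3 with voom, and 0 to 2 with a library left out. Ratio differences in series B were 2.00 (Cpe/Scg3), 0.94 (Cpe/Slc1a2) and -1.05 (Scg3/Slc1a2), all with an adjusted exact permutation p of 0.12. With 1 library left out they were 1.78 to 2.07, 1.03 to 1.30 and -0.90 to -0.72, with adjusted p of 0.0357 to 0.0714, and Pcsk1n/Pcsk1 was 2.50 to 3.47 (1.97 with a pseudocount of 3). Pcsk2 was at 2.47 with the second transcript. Fewer splits raise the smallest p to 0.0357 without a whole astrocyte library (28 splits) and 0.0179 without an endfeet library (56 splits). Other causes were not tested. Libraries of the groups share the numbers 1, 2 and 3, but deviations of same-numbered libraries correlated at -0.0339, 0.00847 and 0.0714, so the numbers were not taken as pairs. With the replicate block 2 members were higher, 0 lower, and Cpe was at 1.79, Pam at 2.55 (adjusted p 0.00988 and 0.00104), and over all genes 2501 rose and 1958 fell. Pcsk1 had 0 to 30 counts in endfeet libraries, and the part of depth in its values was not tested.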
